A study of Rattus norvegicus with 30 samples.

Results

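Low-dose phenobarbital was compared with its vehicle after 24 h in primary rat hepatocytes, on 10 of the 30 arrays of the series. The members were the 5 arrays labelled 300 µM and the 5 arrays labelled as vehicle at that time, chosen by their labels alone, with every probe set except the manufacturer's controls. Male Sprague Dawley rats were the source of the hepatocytes, which were purchased frozen, grown on collagen with Matrigel added on top, and dosed on day 3. The vehicle is called water in the titles and culture media in the field for the agent. The other arrays held 3000 µM phenobarbital at 24 h and vehicle, 300 µM and 3000 µM phenobarbital at 48 h, each with 5 wells, and every group shared the same culture system. The labels call the 5 wells of a group independent cultures but number no animal, donor or vial. Differences are therefore set against the spread between wells only, not between rats.

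Phenobarbital is the classical inducer of drug metabolism in liver. It sends the constitutive androstane receptor, CAR, into the nucleus without binding it as an agonist would, and at higher levels it also acts through the pregnane X receptor, PXR. Both receptors pair with the retinoid X receptor and switch on cytochromes P450, the reductase and heme supply that these enzymes need, conjugating enzymes and efflux pumps, and the smooth endoplasmic reticulum of the hepatocyte expands.

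The gene pair best known for this response, Cyp2b1 and Cyp2b2, is read by 1 probe set that the annotation assigns to both, so the array did not separate them. Their start regions, shown because they make plain how alike the pair is, were taken from RefSeq on GRCr8 and cover 250 bases before to 50 after the start. Both lie on the plus strand of chromosome 1, at chr1:90645869-90646168 for Cyp2b1 and chr1:90722031-90722330 for Cyp2b2. Laid side by side without gaps, 283 bases overlap, of which 275 are identical (97.2%), and capitals mark the 8 that differ.
Cyp2b1: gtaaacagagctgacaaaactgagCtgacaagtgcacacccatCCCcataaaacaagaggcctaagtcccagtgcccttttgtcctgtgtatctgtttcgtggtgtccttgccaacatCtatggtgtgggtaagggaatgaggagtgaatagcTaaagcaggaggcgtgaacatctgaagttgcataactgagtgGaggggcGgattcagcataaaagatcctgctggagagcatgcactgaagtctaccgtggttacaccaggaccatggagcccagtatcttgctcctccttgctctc
Cyp2b2: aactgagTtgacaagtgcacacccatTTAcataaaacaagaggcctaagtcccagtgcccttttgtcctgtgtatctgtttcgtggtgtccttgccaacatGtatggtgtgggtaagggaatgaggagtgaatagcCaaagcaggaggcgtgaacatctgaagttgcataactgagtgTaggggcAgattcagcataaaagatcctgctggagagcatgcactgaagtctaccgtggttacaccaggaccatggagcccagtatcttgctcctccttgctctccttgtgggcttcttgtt
A run of 3 neighbouring bases and 5 single bases are in capitals, and the rest of the overlap is shared.

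Values are log2 signals of probe sets, and changes are log2 differences between group means, so that 1 is a doubling. Signals are not absolute levels and are not compared between genes. The 10 arrays had equal trimmed means through their scaling, and their median signals still ran from 354.1 to 405.1. Pairs of arrays from the different groups correlated at r from 0.9678 to 0.9774. The mean r of an array with its own group was 0.9775 to 0.979 at 300 µM, above every such pair, but 0.9691 to 0.9748 with vehicle, within their range. Vehicle array 1 stood apart in its hybridization controls, RNAs added in fixed amounts, with a mean log2 signal of 13.90 against 12.84 to 13.07 on the other 9 arrays. Summed signals of hepatocyte markers were 18.90 to 19.30 with vehicle and 18.68 to 18.90 at 300 µM, and all 12 markers on the array reached the filter for testing, a log2 signal of 8.58 in at least 1 group mean. Of these, 2 P450s, Cyp2c11 and Cyp3a2, rose, though Cyp2c11 did not pass in every setting described below. Hnf4a was at 0.20, and all the others had negative changes, from -0.36 for Slc10a1 and -0.35 for Alb to -0.11 for Asgr1. None of these passed. Of the markers of other cells, 8 of 10 for macrophages, 7 of 13 for stellate cells, 3 of 11 for endothelium, 3 of 8 for bile ducts and 2 of 9 for lymphocytes reached the filter, and none of those changed. Their summed signals overlapped between the groups, at 13.62 to 13.78 with vehicle against 13.46 to 13.67 for macrophages, 12.22 to 12.56 against 12.13 to 12.54 for stellate cells and 11.25 to 11.78 against 11.37 to 11.58 for endothelium. The macrophage sum mostly reads Lyz2, at 13.16 with vehicle, where the next highest marker, Cd68, was at 9.57. Apart from Cd68 (0.07), every tested macrophage marker had a negative change, the largest being C1qb (-0.98), Csf1r (-0.54) and C1qa (-0.46). A lower macrophage share is therefore not excluded by the overlap. The part of these other cells, of the hepatocyte marker shift and of array 1 in the results was not tested beyond the settings given with each result. In bulk RNA, fewer cells of a type and less RNA per cell cannot be told apart.

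At 300 µM, 496 of 16596 tested probe sets changed (2.99%) at an adjusted p under 0.05 by limma, 285 upward and 211 downward. Most changes were small: 415 were under 1.5-fold, the median rise was 0.40, the median fall was -0.32, and 18 rises and 3 falls reached 2-fold. All 5 treated arrays lay on one side of all 5 vehicle arrays in 399 of the 496, against 879 of all tested probe sets (5.3%). Of 9831 genes read by 1 probe set each, 180 rose (1.83%) and 158 fell (1.61%), and the median change of all genes was -0.01. By sign alone, 4731 of the 9831 changes were positive and 5100 negative. These shares and counts are the background for the gene groups that follow. The groups share some members, so that a called gene can be counted in more than 1 of them. A call is said to be held when it passed in the same direction in every one of the 20 other settings that tested its probe set. These settings were, among others, other scalings, filters and models and each of the 10 arrays left out. By that measure 180 of the 496 probe sets held, 121 rises and 59 falls, and none turned its direction in any setting. The count of 496 became 325 without 300 µM array 2, 326 without 300 µM array 4 and 226 when array medians were centred.

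**Figure D1:**
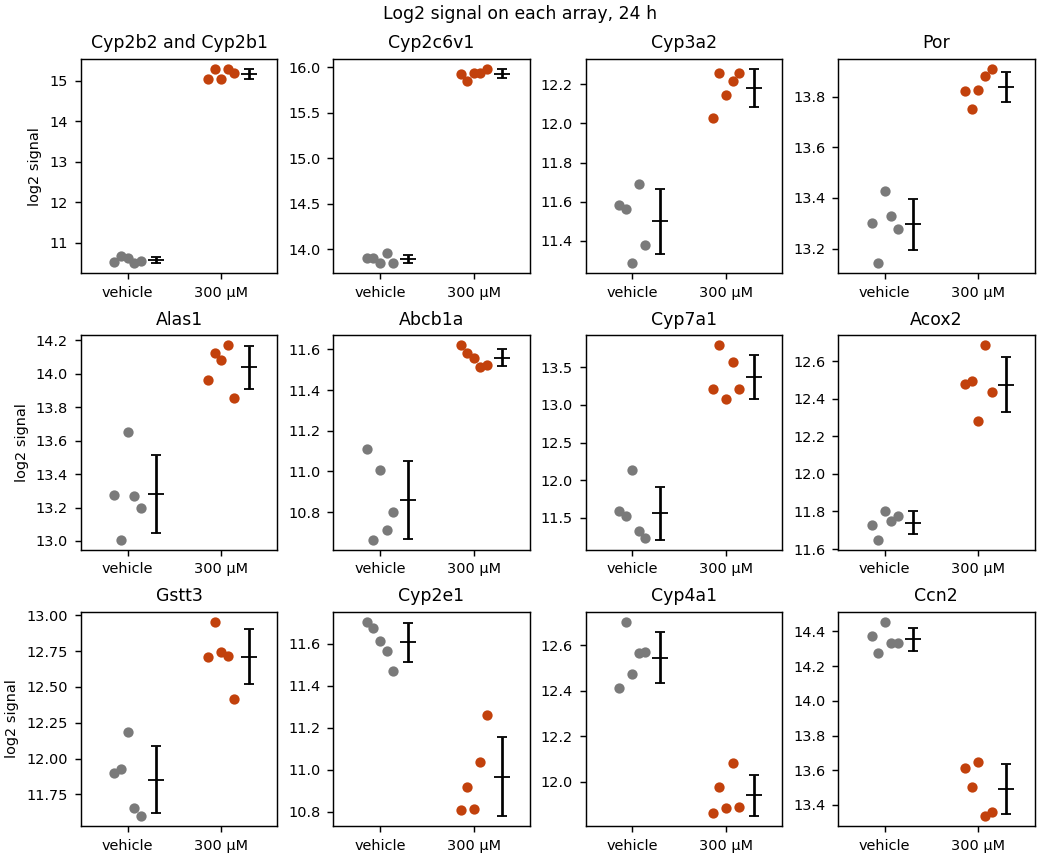
Log2 signal (vertical axes, scaled to each gene) of 12 named genes or probe sets on each of the 5 vehicle arrays (grey) and 5 arrays at 300 µM (orange) at 24 h. Bars give mean and SD, and in each of the 12 panels the groups do not overlap.

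The drug-metabolizing P450s included the largest rise of the comparison. On the shared probe set of Cyp2b1 and Cyp2b2, enzymes that oxidize barbiturates and other drugs, the vehicle arrays read 10.52, 10.67, 10.63, 10.48 and 10.53 and the treated arrays 15.04, 15.29, 15.04, 15.28 and 15.21. Each group was tight and the gap between them was wide, a change of 4.61 (SE 0.23), or 24.3-fold (adjusted p = 1.73e-14). Every SE and adjusted p here and below, unless said otherwise, rests on the spread within all 6 groups of the fit, not only the 2 compared. For this probe set the SD was 0.08 with vehicle and 0.13 at 300 µM at 24 h, but 0.825 at 3000 µM and 48 h. Cyp2c6v1, another phenobarbital-inducible drug oxidase, read 13.90, 13.90, 13.84, 13.95 and 13.84 with vehicle and 15.93, 15.85, 15.94, 15.94 and 15.98 at 300 µM. Its groups were the most tightly bunched of the 3 P450s described here and stood 2.04 (SE 0.06) apart (adjusted p = 1.68e-23). Cyp3a2, the male-predominant P450 of the 3A family, read 11.59, 11.56, 11.29, 11.69 and 11.38 and rose to 12.03, 12.26, 12.15, 12.22 and 12.26, a change of 0.68 (SE 0.11) with adjusted p = 0.000108. The lowest treated array was above the highest vehicle array.

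Among the 25 tested genes of the Cyp2 and Cyp3 list, each read by a probe set of its own, 6 rose and 1 fell, with 3 rises and the fall held. The other 18 did not pass. The median change was 0.03, and in the other settings it ran from 0.02, without 300 µM array 5, to 0.10, without 300 µM array 3. Cyp2c7, which oxidizes retinoids and steroids, was the third held rise at 0.58 (SE 0.09). The only fall was Cyp2e1, which oxidizes ethanol and small solvents, from 11.71, 11.68, 11.62, 11.57 and 11.47 with vehicle to 10.81, 10.92, 10.81, 11.04 and 11.26 at 300 µM, a change of -0.64 (SE 0.14, adjusted p = 0.00551). Here too the groups did not overlap. Cyp3a23-3a1, the inducible PXR target among the 3A genes, gave no call at 0.03 (adjusted p = 0.944). Its signals, 16.58, 16.19, 16.17, 16.13 and 16.20 with vehicle and 16.33, 16.24, 16.36, 16.25 and 16.26 at 300 µM, are near the top of the scale. Vehicle array 1 was the highest of all 10, and the change was 0.12 without it. After quantile normalization the value was 0.24 with adjusted p = 0.00102. The AhR list, with Cyp1a1 and Cyp1a2 that metabolize planar aromatic compounds, had no call among 6 tested genes. Cyp1a1 read 13.95, 14.36, 13.99, 14.47 and 14.52 with vehicle and 14.78, 14.44, 14.80, 14.79 and 14.85 at 300 µM, a difference of 0.47 (SE 0.20) that did not pass (adjusted p = 0.24) but did when the 2 groups were fitted alone (0.0392).

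Of the partners that feed electrons and heme to P450s, a few members rose while the 2 lists as a whole were centred near 0. Por, the reductase that passes electrons from NADPH to all microsomal P450s, read 13.30, 13.14, 13.43, 13.33 and 13.28 with vehicle and 13.82, 13.75, 13.83, 13.88 and 13.91 at 300 µM. The change was 0.54 (SE 0.09, adjusted p = 0.000107), and a second probe set of the gene rose by 0.43. Alas1, the rate-limiting enzyme of heme synthesis, read 13.27, 13.01, 13.65, 13.27 and 13.20 with vehicle and 13.96, 14.13, 14.08, 14.17 and 13.86 at 300 µM, a change of 0.76 (SE 0.11) with adjusted p = 2.19e-05. Vehicle array 3 was the highest of its group and still below every treated array. Hmox1, which breaks heme down and is also an Nrf2 target, rose by 0.46 (SE 0.10). Its groups overlapped, with 300 µM array 2 at 14.66 and the other 4 at 15.16 to 15.24. Of 16 tested genes of heme synthesis and breakdown, 4 rose and 1 fell, and the held calls were those of Alas1 and Hmox1. The median was -0.01, between -0.04 and 0.02 in the other settings, and 9 of the 16 changes were negative. Of 9 redox partners, 2 rose and 1 fell, and Por held. Here the median was -0.02, between -0.05 and 0.04 in the other settings, with 5 of 9 negative.

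Conjugating enzymes changed singly. Among 22 glutathione S-transferases and epoxide hydrolases read by a probe set of their own, 3 rose, all held, and 1 fell. The probe set shared by Gsta5 and Gsta2 is not among the 22. It rose by 0.53 (adjusted p = 1.1e-06 by limma) and is named after its values were seen. Gstt3, a theta-class transferase, read 11.90, 11.93, 12.18, 11.66 and 11.60 with vehicle and 12.71, 12.96, 12.75, 12.72 and 12.42 at 300 µM, a change of 0.86 (SE 0.11, adjusted p = 3.71e-06). Gsta4, which conjugates lipid peroxidation products, rose by 0.37 (SE 0.06), and Gstk1, a mitochondrial and peroxisomal transferase, by 0.37 (SE 0.07). The list's median was nevertheless -0.10, or -0.04 after quantile normalization. Ephx1, the microsomal epoxide hydrolase of the CAR response, did not pass at 0.05 (adjusted p = 0.834), with signals near the top of the scale. After quantile normalization its value was 0.19 with adjusted p = 1.96e-05. Of 9 genes of glucuronidation, which attaches glucuronic acid to drugs and steroids, Ugt2b1 rose by 0.35 (SE 0.07) and Ugt2b10 by 0.38 (SE 0.08), and both held. The list's median was 0.08, which became 0.175 after quantile normalization and 0.16 without vehicle array 1. It was 0.04 without vehicle array 2 and 0.05 without vehicle array 3 or 5. Sult1e1, the estrogen sulfotransferase, read 11.25, 11.05, 11.40, 11.22 and 10.84 with vehicle and 11.80, 12.13, 11.87, 11.99 and 12.26 at 300 µM, a change of 0.86 (SE 0.11, adjusted p = 8.19e-06), the only rise among the 19 genes of its list, in which 1 fell. Ces1d, a carboxylesterase, was the 1 of 12 esterases that fell, at -0.54 (SE 0.10), in a list with 10 of 12 changes negative and a median of -0.12. Dhrs3, a retinal reductase, rose by 0.39 (SE 0.09) and Fmo5, a flavin monooxygenase, fell by 0.31 on the log2 scale, both held, in a list of 34 alcohol, aldehyde and carbonyl enzymes with 1 rise and 3 falls. Of 23 steroid and retinoid enzymes 2 fell, neither held, and the median was -0.07, or -0.04 without 300 µM array 3 and -0.05 without vehicle array 5.

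Efflux pumps rose where they changed at all, 3 of 14 with 2 held, and the list's median was 0.09, or 0.15 without vehicle array 1 and 0.14 without vehicle array 2. Abcb1a, the drug pump P-glycoprotein, read 11.11, 10.66, 11.01, 10.71 and 10.80 with vehicle and 11.62, 11.58, 11.56, 11.52 and 11.52 at 300 µM. The treated arrays lay close together and above all vehicle arrays, a change of 0.70 (SE 0.10) with adjusted p = 6.21e-05, and a second probe set rose by 0.53. Abcc3, the basolateral pump for conjugates, read 12.77, 12.64, 12.69, 12.75 and 12.71 with vehicle and 13.06, 13.10, 13.03, 13.18 and 13.01 at 300 µM and rose by 0.36 (SE 0.06), again without overlap. Among 15 uptake carriers, Slc15a1, a peptide carrier, rose by 0.53 (SE 0.11) and Slco1a1, an organic anion carrier, fell, with a change of -0.41 (SE 0.09). The receptors themselves did not pass: Nr1i3, which encodes CAR, read 11.38, 11.52, 11.64, 11.57 and 11.44 with vehicle and 11.29, 11.32, 11.53, 11.49 and 11.52 at 300 µM, a difference of -0.08 (SE 0.17). Nr1i2, which encodes PXR, differed by -0.23 (SE 0.08, adjusted p = 0.161). In the list of CAR, PXR and their partners, 2 of 30 genes fell and none rose. Fkbp5, a cochaperone of steroid receptors, was the held fall at -0.40 (SE 0.08), and its second probe set fell too, at -0.27. Of 20 genes of growth and survival linked to CAR, 1 rose and that call did not hold. Gadd45b, a stress gene and partner of CAR, had a difference of 0.14 (SE 0.10), and Ccnd1, a cyclin of cell cycle entry, of 0.27 (SE 0.14), neither past the test.

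Bile acid synthesis had 3 rises and 1 fall among 15 genes, all held. The list's median was -0.02, and 9 of the 15 changes were negative. Cyp7a1, the rate-limiting enzyme that turns cholesterol into bile acids, read 11.59, 11.52, 12.14, 11.32 and 11.23 with vehicle and 13.21, 13.79, 13.09, 13.57 and 13.21 at 300 µM. Vehicle array 3 was highest of its group yet well below the lowest treated array, and the change was 1.81 (SE 0.25), or 3.51-fold (adjusted p = 2.05e-05). Acox2, the peroxisomal oxidase that shortens the bile acid side chain, read 11.73, 11.65, 11.80, 11.75 and 11.78 with vehicle and 12.48, 12.50, 12.28, 12.69 and 12.43 at 300 µM, a change of 0.73 (SE 0.09) with adjusted p = 1.33e-06. Neither gene's groups overlapped. Cyp39a1, an oxysterol hydroxylase, read 10.96, 10.32, 10.51, 10.80 and 11.03 with vehicle and 11.21, 11.71, 11.44, 12.11 and 11.87 at 300 µM and rose by 0.95 (SE 0.18). Its groups were also apart, and each was more spread out than that of Acox2. The fall was Slc27a2, an acyl-CoA synthetase for very long chains, at -0.34 (SE 0.05). Cyp8b1, the hydroxylase that sets the cholic acid share, had all 5 treated arrays (11.69, 11.62, 11.64, 11.64 and 11.59) below all vehicle arrays (12.19, 12.20, 12.55, 12.03 and 12.42). Its difference of -0.64 (SE 0.19) did not pass (adjusted p = 0.0675), while with the 2 groups fitted alone the adjusted p was 0.000345. The SD of Cyp8b1 was 0.21 with vehicle and 0.04 at 300 µM at 24 h, but 0.73 at 3000 µM and 48 h.

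Cholesterol synthesis genes and other targets of SREBP2, the factor that senses low sterols, leaned upward together, with 22 of 24 changes positive and a median of 0.17 against -0.01 for all genes. Of these 24, 4 rose, 2 of them held, and none fell. Msmo1, a sterol demethylase, read 14.05, 13.96, 14.15, 13.82 and 13.91 with vehicle and 14.30, 14.59, 14.30, 14.50 and 14.43 at 300 µM, a change of 0.44 (SE 0.08, adjusted p = 0.000967). Idi1, the isopentenyl isomerase, read 13.99, 13.94, 13.91, 13.80 and 13.84 with vehicle and 14.17, 14.50, 14.20, 14.34 and 14.25 at 300 µM, a change of 0.39 (SE 0.07, adjusted p = 0.000676), and its second probe set rose by 0.45. Promoters of 20 of the 24 genes were in the RefSeq table, and the sterol response element core TCACNCCAC, searched on both strands from 250 bases before to 50 after the start, was in 0 of them, against 374 of all 33469 promoters (1.12%). The half-site of nuclear receptors, AGGTCA, repeated in the same direction with 1 or 4 bases between the 2 copies, was not found in these 20 either, nor was any of the 3 motifs in the 48 promoters of 46 named genes that rose. Over all promoters the spacing of 1 base occurred in 18 (0.0538%) and of 4 bases in 2 (0.00598%). With shares this low, sets of 20 or 48 promoters would mostly hold none, so these absences cannot set the genes apart. Inexact copies and sites further from the start were not searched.

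Fatty acid oxidation and PPARalpha targets leaned the other way: 34 of 40 changes were negative, the median was -0.20, and 9 genes fell while none rose. Held falls were Cyp4a1 and Cyp4a3, fatty acid omega-hydroxylases, and Angptl4, a secreted inhibitor of lipoprotein lipase. Cyp4a1 read 12.41, 12.71, 12.48, 12.57 and 12.57 with vehicle and 11.87, 11.98, 11.89, 12.09 and 11.89 at 300 µM, a change of -0.61 (SE 0.07) with adjusted p = 1.37e-06. Angptl4 read 13.23, 12.94, 13.01, 13.05 and 12.92 with vehicle and 12.39, 12.47, 12.55, 12.61 and 12.49 at 300 µM, a change of -0.53 (SE 0.07) with adjusted p = 7.7e-06. In both genes the treated arrays lay below all vehicle arrays. Cyp4a3 changed by -0.45 (SE 0.08). The list's median was -0.19 after quantile normalization. Lipogenesis and triglyceride genes split evenly, with 2 of 28 up and 2 down and no held call. In phospholipid and endoplasmic reticulum genes 2 of 37 rose and held: Cers6, a ceramide synthase, read 9.64, 9.37, 9.92, 9.85 and 10.14 with vehicle and 10.69, 10.78, 10.82, 10.79 and 10.64 at 300 µM and rose by 0.96 (SE 0.11, adjusted p = 8.12e-07), and Ptdss2, a phosphatidylserine synthase, rose by 0.45 (SE 0.10), while its second probe set did not pass at 0.17. Of 32 genes of glucose production and insulin response 28 had negative changes, with a median of -0.10, or -0.08 after quantile normalization. Of them 2 fell, neither held, and Pck1, the gluconeogenic carboxykinase, did not pass at -0.58 (SE 0.27).

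**Figure D2:**
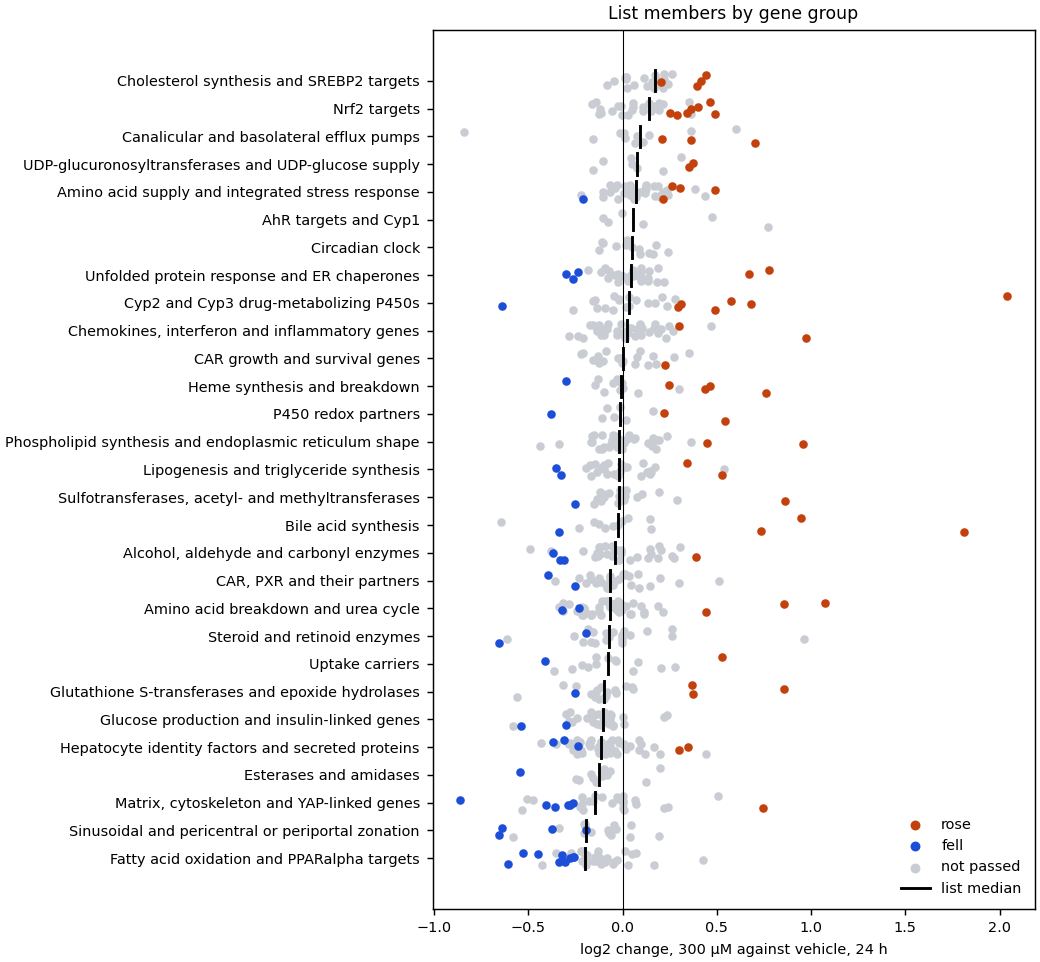
Log2 change at 24 h (horizontal axis) of every tested member of 29 gene groups, ordered by their medians (black bars), with genes that rose in orange, fell in blue and did not pass in grey. The median of cholesterol synthesis is 0.17 at one end, and those of fatty acid oxidation and of zonation markers are both -0.20 at the other. After quantile normalization glucuronidation (0.175) and cholesterol synthesis (0.174) were level at the top, and zonation was at -0.10.

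Stress-linked groups rose in part. Of 31 Nrf2 targets, genes of glutathione supply and oxidant defence, 7 rose, 4 held, and none fell, with a median of 0.14. Hmox1, Abcc3 and Me1 among them are also counted in the heme, efflux or lipogenesis lists, and Slc7a11 in the integrated stress response list. Slc7a11, the cystine carrier, read 11.17, 11.33, 11.07, 11.51 and 11.39 with vehicle and 11.81, 11.51, 11.72, 11.97 and 11.92 at 300 µM, a change of 0.49 (SE 0.09, adjusted p = 0.00121), with 300 µM array 2 at the level of the highest vehicle array. Gclc, which catalyses the first step of glutathione synthesis, rose by 0.40 (SE 0.09), and its second probe set did not pass at 0.30. In the integrated stress response list 4 of 41 rose, 2 of them held, and 1 fell, and 32 of the 41 changes were positive with a median of 0.07, or 0.11 without vehicle array 4 and 0.12 without 300 µM array 3. Psat1, of serine synthesis, rose by 0.30 (SE 0.05) with both groups tight. In the unfolded protein response 2 of 33 rose and 3 fell. The rises were Uggt1, which checks glycoprotein folding, from 11.81, 11.93, 11.58, 11.95 and 11.80 with vehicle to 12.63, 12.23, 12.71, 12.76 and 12.61 at 300 µM, and Ero1a, which drives disulfide formation, at 0.67 (SE 0.14). Ero1a's second probe set pointed the other way, at -0.40, and did not pass, and 300 µM array 2 was again low at 12.18 against 12.77 to 12.85. The falls, none held, were those of the chaperone Hsp90b1 at -0.24 and of Herpud1 (-0.30) and Edem1 (-0.26), which act in the disposal of misfolded proteins. Edem1 has 2 further probe sets, and both fell, at -0.41 (adjusted p = 0.000138 by limma) and -0.22 (adjusted p = 0.0335). In amino acid breakdown 3 of 45 rose, all held, and 2 fell, while 33 of the 45 changes were negative with a median of -0.07, or -0.04 after quantile normalization or without vehicle array 3. Aass, of lysine breakdown, read 11.35, 11.03, 11.63, 11.65 and 11.49 with vehicle and 12.33, 12.64, 12.39, 12.39 and 12.79 at 300 µM and rose by 1.08 (SE 0.12). Ddc, the aromatic amino acid decarboxylase, read 11.45, 11.66, 11.78, 11.65 and 11.54 with vehicle and 12.50, 12.42, 12.39, 12.61 and 12.43 at 300 µM, a change of 0.85 (SE 0.09, adjusted p = 1.4e-07), while its second probe set did not pass at 0.25. Acmsd, of tryptophan breakdown, rose by 0.44 (SE 0.08).

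Genes of hepatocyte identity and secretion leaned downward, with 46 of 59 negative and a median of -0.12, but the median was -0.04 after quantile normalization. Of these 59, 2 rose and 3 fell. Apoa5, a regulator of plasma triglycerides, was the held fall, from 13.80, 13.78, 13.71, 13.68 and 13.71 with vehicle to 13.38, 13.31, 13.44, 13.35 and 13.35 at 300 µM, a change of -0.37 (SE 0.05). Mbl2, a complement lectin, rose by 0.34 (SE 0.05), with 0.33 on its second probe set, and Crp, an acute-phase protein, by 0.30 (SE 0.06). Among all tested probe sets, the 10% with the highest mean signal had a median change of -0.05, or -0.01 after quantile normalization, and summed hepatocyte markers ranged lower at 300 µM as given above. Zonation markers had 4 falls among 19 and a median of -0.20, which was -0.10 after quantile normalization, and the only held fall was Cyp2e1. Of these falls, Cyp2e1, Hsd17b13 and Hsd11b1 are also counted in the P450 or steroid lists above. Matrix, cytoskeleton and YAP-linked genes had 6 falls and 1 rise among 31, and the median of -0.14 was -0.03 after quantile normalization. Ccn2, the YAP target connective tissue growth factor, read 14.37, 14.28, 14.46, 14.34 and 14.33 with vehicle and 13.61, 13.50, 13.65, 13.34 and 13.36 at 300 µM, a change of -0.86 (SE 0.09, adjusted p = 3.65e-07) with a clear gap between the groups. Vim, the intermediate filament vimentin, was the other held fall, from 13.59, 13.62, 13.61, 13.64 and 13.64 with vehicle to 13.43, 12.99, 13.29, 13.36 and 13.24 at 300 µM, with near-equal vehicle arrays and a change of -0.36 (SE 0.08). Summed markers of stellate cells overlapped between the groups. In 40 chemokine and inflammatory genes 2 rose and 1 held. Cxcl9, an interferon-induced chemokine, was 11.96 ± 0.21 with vehicle and 12.94 ± 0.19 at 300 µM (mean ± SD, n = 5) with no overlap of the arrays, a change of 0.97 (SE 0.11), and its second probe set rose by 1.05. None of 13 clock genes changed.

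Outside these groups, several of the largest changes were held. Grk5, a kinase of G protein-coupled receptors, read 9.74, 10.26, 10.01, 10.04 and 10.04 with vehicle and 11.33, 11.29, 11.23, 11.57 and 11.15 at 300 µM, a change of 1.30 (SE 0.14, adjusted p = 1.79e-07). Tsku, a secreted leucine-rich protein, read 11.87, 11.59, 11.95, 11.98 and 12.16 with vehicle and 13.03, 12.97, 13.01, 13.25 and 13.24 at 300 µM, a change of 1.19 (SE 0.13, adjusted p = 3.65e-07). In both the groups were separate by a wide margin. Meox2, a homeobox factor, was tested because of its level at 300 µM: it was 9.55 ± 0.41 there and 6.94 ± 1.75 with vehicle (mean ± SD, n = 5), where arrays ran from 4.82 to 8.77 and 4 of the 5 were below the filter of 8.58. The difference of 2.61 (SE 0.65) is set against those low and scattered signals, and it ran from 2.04 to 3.07 in the other settings. Its adjusted p was 0.0177, and 0.0688, 0.0719 and 0.0542 without vehicle array 4, vehicle array 5 or 300 µM array 2. Among falls, Rprm, a p53-linked arrest gene, changed by -1.11 (SE 0.26, adjusted p = 0.0122), with 300 µM signals around the filter at 8.64 ± 0.26 (mean ± SD, n = 5), and the adjusted p was 0.0512 without vehicle array 2. B3galnt1, a globoside synthase, read 12.93, 13.05, 12.90, 13.08 and 13.01 with vehicle and 12.59, 12.28, 12.35, 12.25 and 12.49 at 300 µM, a held change of -0.60 (SE 0.07). Aqp9, the glycerol channel of hepatocytes, read 11.03, 11.14, 11.12, 11.18 and 11.15 with vehicle and 10.59, 10.44, 10.64, 10.61 and 10.48 at 300 µM, a change of -0.57 (SE 0.09). Slc25a4, a mitochondrial ADP/ATP carrier, changed by -0.54 (SE 0.10). Tnk2, Diaph3, Magee1 and Filip1l also fell and held, between -0.78 and -0.59. Of the 496 probe sets, 72 had no symbol and 12 had several. These were counted but not named, apart from those shared by Cyp2b1 and Cyp2b2 and by Gsta5 and Gsta2.

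At 48 h the same dose was measured in other wells, and no array is shared with the 24 h comparison. There 255 probe sets changed (1.54%), and 138 were called at both times in the same direction, which is 27.8% of the 24 h list and 54.1% of the 48 h list, with 0 called in opposite directions. The count of 138 became 71 when array medians were centred and 239 with array weights. Of the 285 rises, 250 were positive at 48 h (87.7%), where 45.9% of all probe sets were, and of the 211 falls 191 were negative (90.5%). The median at 48 h was 0.21 for the 24 h rises and -0.19 for the falls. Of the 21 probe sets that changed by at least 2-fold at 24 h, 7 passed at 48 h. Changes of Cyp2b1 and Cyp2b2 (3.71), Cyp2c6v1 (2.25), Cyp3a2 (1.32), Grk5 (1.34), Por (0.46), Alas1 (0.62), Gstt3 (0.84) and Cyp7a1 (1.02) passed again. So did the falls of Cyp4a1 (-0.85), Angptl4 (-0.55) and Ccn2 (-0.63). Abcb1a (0.16), Cyp39a1 (0.21), Msmo1 (0.18) and Idi1 (0.07) did not. The cholesterol list had a median of 0.04 at 48 h with no call, and the fatty acid oxidation list -0.16 with 6 falls. A test of the difference between the effects at the 2 times called 0 probe sets (0%), with 1251 at an unadjusted p under 0.05 (7.54% of those tested) and a lowest adjusted p of 0.16. The other settings called 0 to 3, and the 3 probe sets concerned are named after their values were seen. With only the compared groups fitted, the effect on Cyp2b1 and Cyp2b2 differed by -0.90, as 48 h minus 24 h (adjusted p = 0.0056 by limma, against 0.492 with all groups fitted). That fit and 2 other settings called the probe set shared by Gsta5 and Gsta2 (adjusted p = 0.0464, 0.00854 and 0.00232, against 0.16). That fit and the one without vehicle array 3 called a second probe set of Adh1c (0.0421 and 0.0412, against 0.16). Its effect differed by 0.83 and 0.92 there, as 48 h minus 24 h. The probe set that stands for Adh1c differed by 0.35 with all groups fitted (adjusted p = 0.476 by limma).

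**Figure D3:**
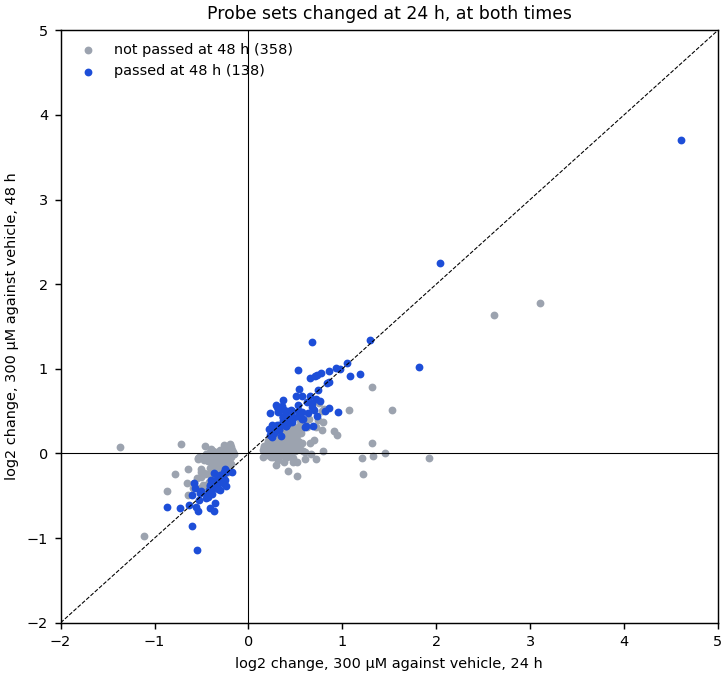
Log2 change at 300 µM against vehicle for the 496 probe sets called at 24 h, at 24 h (horizontal axis) and 48 h (vertical axis), with those that passed at both times in blue. The dashed line marks equal change, and 138 of 496 passed again.

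The 3000 µM wells at 24 h are shown against the 300 µM wells, which the comparison with vehicle also uses. Between the doses 4336 probe sets differed (26.1%). Because the 300 µM arrays enter both comparisons, each gene's own values are given side by side, for examples from those described above that do not stand for all changed genes. The Cyp2b1 and Cyp2b2 signal was 10.57 ± 0.08 with vehicle, 15.17 ± 0.13 at 300 µM and 11.74 ± 0.34 at 3000 µM (mean ± SD, n = 5), a difference between the doses of -3.43. Cyp7a1 was 11.56 ± 0.35, 13.37 ± 0.30 and 10.28 ± 0.32 at these doses, below vehicle at the top. Alas1, Por, Gstt3, Ddc and Acox2 were also lower at 3000 µM than at 300 µM, with differences of -1.08, -0.72, -0.97, -0.88 and -1.24. Cyp2c6v1 had a difference of -0.36 between the doses but was far above vehicle, at 15.57 ± 0.05 against 13.89 ± 0.05. Cyp3a2 differed between the doses by -0.04 and did not pass. In the other direction, Abcb1a was 10.86 ± 0.19, 11.56 ± 0.04 and 12.14 ± 0.22, and Msmo1 and Idi1 were higher at 3000 µM by 0.77 and 0.55. Cyp4a1, which fell at 300 µM, was lower again at 3000 µM with a difference of -0.88 between the doses.

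**Figure D4:**
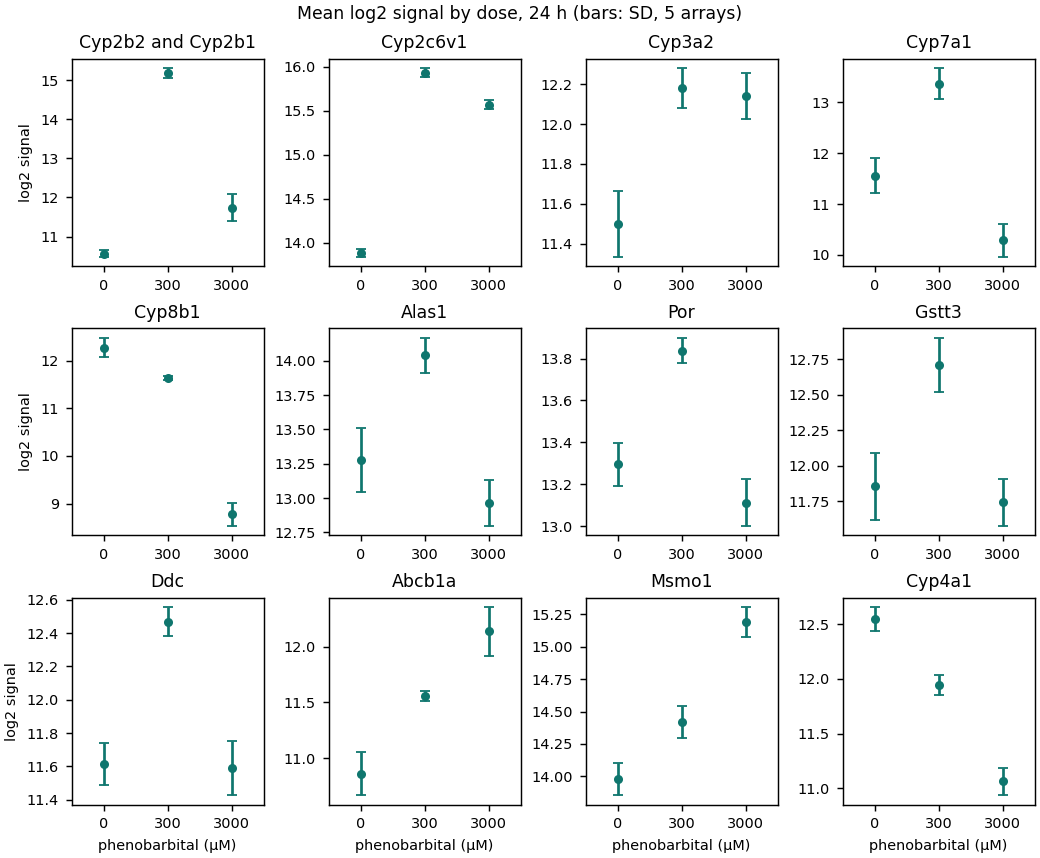
Mean log2 signal (vertical axes, scaled to each gene; bars are SD over 5 arrays) at 0, 300 and 3000 µM phenobarbital at 24 h (horizontal axes, doses equally spaced and not to scale) for 12 genes or probe sets. The Cyp2b signal and Cyp7a1 peak at 300 µM, while Abcb1a and Msmo1 are highest at 3000 µM.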

How the data were processed

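RNA from 30 wells was read on an Affymetrix rat genome array, of which 10 are compared here. The deposited values are linear probe set intensities that the authors made with MAS5, per the submitters' processing notes, with version and target not given in the sources used here. Trimmed means were equal on all arrays, so each was scaled by 1 factor. Signals were taken to log2 with no constant. A probe set was tested where its highest group mean was no lower than the overall median (log2 8.58, signal 384). limma 3.58.1 in R 4.3.3 fitted 6 group means over 30 arrays (eBayes with trend and robust estimation, 2-sided, Benjamini-Hochberg over all probe sets, threshold 0.05), tested on simulated data. Genes take the probe set with the highest mean signal. Symbols come from GEO's platform annotation, updated through RefSeq.

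The comparison, the 29 gene lists and the rule for naming genes were chosen with earlier results of these data known. Within it, arrays were taken by label alone. Named are the 15 largest non-overlapping rises and falls, up to 5 changed members of a list and some known drug response genes, and the text favours those that held. Rxra, Ugt1a1 and Nr0b2 had no tested probe set of their own. The number of arrays limits precision. Running numbers in the titles, in sets of 6, served as a block in 1 alternative.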

Additional observations from a re-analysis of the deposited data

Results flagged for a closer look

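In 14 of 224 sets of 5 arrays (112 named genes or probe sets, vehicle and 300 µM), 1 array stood apart from the other 4 by Dixon's criterion (critical value 0.71), where chance gives about 1 in 20. All values are log2 signals. At 300 µM, array 2 was low for Hmox1 (14.66), Cyp1a1 (14.44) and Ero1a (12.18). Array 3 was low for Rprm (8.18) and Fkbp5 (12.23), array 4 high for Slc15a1 (12.35) and array 5 high for Fmo5 (12.53). With vehicle, array 1 was high for Cyp3a23-3a1 (16.58) and Dhrs3 (12.02). Array 3 was high for Fkbp5 (13.04), Cyp4a3 (13.30) and Fads1 (12.62) and low for Txnip (12.15), and array 4 low for Stmn1 (8.78). The call of Fads1 was lost in 2 of 20 other settings, but not without vehicle array 3. They were the fit of only the compared groups (adjusted p = 0.111 by limma) and the one without 300 µM array 2 (0.0534). The call of Stmn1 was lost in 3, among them the fit without vehicle array 4 (0.0888). No cause was tested.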

How the results depend on the processing

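The 496 changed probe sets became 226 when array medians were centred, with 67.3% rising against 57.5%, and 325 to 444 when 1 of the 10 arrays was left out, lowest without 300 µM arrays 2 (325) and 4 (326). The cause was not tested. The count was 628 without the 2 arrays high in hybridization controls, a setting chosen after seeing the data, and 689 with array weights. Changes seen again at 48 h numbered 71 with medians centred, 239 with array weights and 121 to 136 with 1 array left out. The difference between times called 3 probe sets with only the compared groups fitted (Gsta5 and Gsta2 shared, Cyp2b1 and Cyp2b2 shared, and a second probe set of Adh1c). That test called 1 with array weights, 0 to 1 with 1 array left out (1 without vehicle array 3), and 1 without those 2 arrays. All were chosen after their values were seen. Running-number sets do not pair the arrays (correlations of deviations -0.013 to 0.024, 0 of 5 arrays best with their own number), and the replicate block gave 466. No named call turned its direction. Signals near the filter limit the precision. Whether signals near the top of the scale still show the full size of a change was not tested.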
